A study of Rattus norvegicus with 18 samples.

Results

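COX1, COX2, COX3 and CYTB are 4 protein-coding genes of the mitochondrial genome, and their RNA was followed here in kidneys of diabetic and healthy rats, with and without plantain flour. They were taken by gene symbol from a deposited table of 29 features, of which 12 are mitochondrial genes, 16 are named nuclear genes and 1 has no gene name. The table covers 18 kidney libraries of male rats aged 23 weeks, in 6 groups of 3. The DM group was diabetic and given water. The LP, MP and HP groups were diabetic and given plantain flour at a low, medium or high dose, which the study's design text gives as 1, 2 and 4 g per kg body weight. The NH group was healthy and given the high dose, and the NC group was healthy and given water. The labels used here give neither the strain nor how diabetes was brought about, and they do not say that the 3 replicates of a group came from separate animals, so the p-values measure the spread between these libraries, which may be technical.

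Complex IV, cytochrome c oxidase, is the last enzyme of the respiratory chain and passes electrons from cytochrome c to oxygen. COX1, COX2 and COX3 encode its catalytic core: COX1 carries the haem and copper site where oxygen is reduced, COX2 receives electrons from cytochrome c, and COX3 is a core subunit that helps keep the enzyme stable. CYTB encodes cytochrome b, the mitochondrially encoded subunit of complex III, which passes electrons from ubiquinol to cytochrome c. Mammalian mitochondrial genes have no introns and are transcribed as long precursors that are cut into separate RNAs, so genes on a strand share transcription while each RNA has its own stability. The kidney, and its proximal tubule above all, is rich in mitochondria because reabsorption of sodium and solutes uses much ATP.

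In the deposited annotation, whose genome build is not given in the sources used here, all 4 genes lie on the plus strand of the mitochondrial chromosome. COX1 (ENSRNOG00000034234) spans positions 5323 to 6867, or 1545 bases. COX2 (ENSRNOG00000030371) follows it 138 bases further on, at 7006 to 7689, and is 684 bases long. COX3 (ENSRNOG00000030700) spans 8599 to 9382, or 784 bases, and shares its first base with the end of ATP6, a subunit of ATP synthase. CYTB (ENSRNOG00000031766) spans 14136 to 15278, or 1143 bases. How the counting treated reads that also match nuclear copies of mitochondrial genes is not given in the sources used here, so the 4 genes' counts are uncertain to that extent.

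The values are read counts, and the 29 features are only part of each library, so the depth of the libraries is unknown. The listed features sum to between 4440262 and 7552061 reads in the 12 diabetic libraries, and to between 8576253 and 10306858 reads in the 6 healthy libraries. The 4 genes together held between 52.3% and 57.5% of the reads of the 28 named genes in diabetic libraries, and between 62.2% and 64.9% in healthy libraries, and the widest 95% Wilson interval of any such share was 0.1 percentage points, which covers counting error only. Of 12 markers of the proximal tubule, 9 were among the features, and of 15 markers of other kidney or blood cell types and 20 nuclear genes of complexes III and IV, 0 were, so those are not analysed here. Of named reads, the 9 markers made up 9.28% to 9.91% for DM, 13.9% to 14.9% for LP, 12.1% to 13.8% for MP, 6.8% to 8.88% for HP, 3.12% to 3.79% for NH and 4.31% to 4.64% for NC. Their part in the results on the 4 genes was not tested, and in tissue RNA fewer cells of a type and less RNA per cell cannot be told apart.

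COX1 had the most reads of all 29 features over the 18 libraries, COX3 came 2nd, CYTB 4th and COX2 5th. COX1 counted 1432699, 1263637 and 1429904 reads in DM and 1144128, 1349389 and 1338057 in LP. With more flour it counted 1849457, 1773636 and 1619227 reads in MP and 2059219, 1694672 and 1602763 in HP. In healthy kidneys COX1 counted 2844448, 2922043 and 3382727 reads in NH, and 2659549, 2516896 and 2688229 in NC. Every diabetic library thus held fewer COX1 reads than every healthy library, as it did for the sum of all listed features.

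COX2 counted 321969, 289532 and 315026 reads in DM and 298660, 354761 and 315259 in LP. At the higher doses it counted 491598, 401798 and 369262 reads in MP and 535471, 349231 and 329891 in HP. In healthy kidneys COX2 counted 722396, 636458 and 776899 reads in NH, and 767707, 763066 and 785910 in NC. The first HP library was well above the other 2 of its group, yet the diabetic and healthy libraries did not overlap.

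COX3 counted 589811, 523306 and 589417 reads in DM and 508393, 544768 and 537579 in LP. It counted 632191, 648493 and 612387 reads in MP and 842905, 691522 and 652299 in HP. In healthy kidneys COX3 counted 1194865, 1081154 and 1326138 reads in NH, and 1187136, 1185342 and 1297984 in NC. Diabetic and healthy libraries were again apart.

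CYTB, the complex III gene, counted 446583, 399335 and 464147 reads in DM and 362471, 423630 and 419170 in LP. It counted 493930, 490359 and 462627 reads in MP and 667585, 528368 and 496563 in HP. In healthy kidneys CYTB counted 1012141, 882984 and 1033338 reads in NH, and 915349, 934175 and 1016093 in NC. The split between the states held for CYTB as well, with no overlap. The sum of all mitochondrial genes, CYTB included, split likewise, at up to 6597300 reads in diabetic and at least 7968719 in healthy libraries. The sum of the nuclear genes split the other way, at 792745 reads or more in diabetic and up to 668928 in healthy libraries. A split between the states was thus not particular to the genes followed here. How many single features split is not given here. All these values are reads as deposited, so differences in depth between libraries are part of each contrast.

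Per base of gene length, the scale on which different genes can be set side by side, the order of levels was COX1, COX3, COX2 and CYTB in 18 of 18 libraries. Mean levels were 890 ± 62.7, 724 ± 48.8, 452 ± 25.0 and 382 ± 29.3 reads per base in DM for the genes in that order, and 1697 ± 59.4, 1561 ± 82.3, 1129 ± 17.7 and 836 ± 46.9 reads per base in NC (SD, n = 3 each). COX1 and COX3 lay closest in NC, where the COX1 level per base was 1.09 ± 0.044 times that of COX3, against 1.23 ± 0.0038 times in DM and 1.40 ± 0.073 times in MP (SD, n = 3 each). Across the libraries of a group, COX1 and COX3 levels per base overlapped in HP and in NC, COX2 and CYTB levels overlapped in HP, and COX3 and COX2 levels overlapped in 0 of the 6 groups. Of the 28 named genes, COX1 had the highest level per base in 16 libraries and ATP6 in the other 2.

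**Figure D1:**
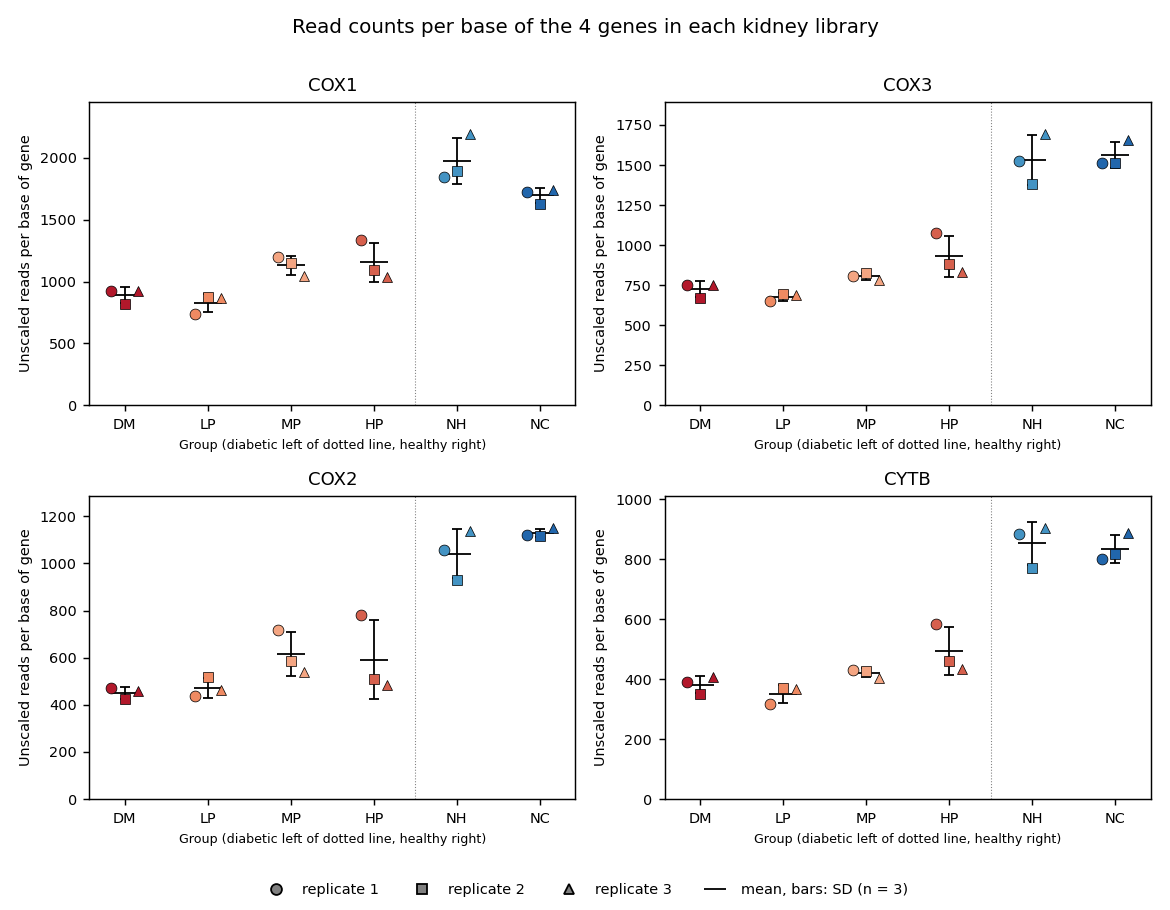
Reads per base of gene length for COX1, COX3, COX2 and CYTB in each kidney library, by group, with the mean and SD of 3 libraries. COX1 lies at 741 to 1333 reads per base in diabetic libraries and at 1629 to 2190 in healthy ones.

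A ratio of 2 genes within a library does not depend on the library's depth. COX2 was low relative to COX1 in diabetic kidneys given water. There were 22.5, 22.9 and 22.0 COX2 reads per 100 COX1 reads in DM, against 28.9, 30.3 and 29.2 in NC. With flour at the high dose there were 26.0, 20.6 and 20.6 in HP, against 25.4, 21.8 and 23.0 in NH. The 3 NC libraries were above all 15 other libraries, while HP and NH overlapped. The log2 ratio was lower by 0.39 in DM than in NC (log2 difference -0.39, SE 0.027) and differed by -0.07 (SE 0.13) between HP and NH.

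Over both feeds, the log2 COX2 to COX1 ratio differed by -0.23 (SE 0.066) between diabetic and healthy kidneys, with a two-sided exact permutation p of 0.03 among 400 splits within feed, and an adjusted p of 0.114 over 198 ratio tests, which did not pass 0.05. The log2 COX3 to COX2 ratio differed by 0.17 (SE 0.058, exact permutation p = 0.02, adjusted p = 0.0825). COX3 per 100 COX2 reads averaged 184 in DM and 158 in NC, and 184 in HP and 169 in NH. Before adjustment 2 of the 6 pairs among the 4 genes were under 0.05, beside 15.2% of the 66 pairs of mitochondrial genes, and after adjustment 0 of 6 were, beside 3.03%. In the water-fed groups alone, DM and NC libraries did not overlap for 5 of the 6 ratios, beside 53.0% of all 66 pairs. Between HP and NH 0 of the 6 ratios were free of overlap, beside 4.55%. With 3 libraries a side an exact test of such a single contrast cannot give a p under 0.1.

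**Figure D2:**
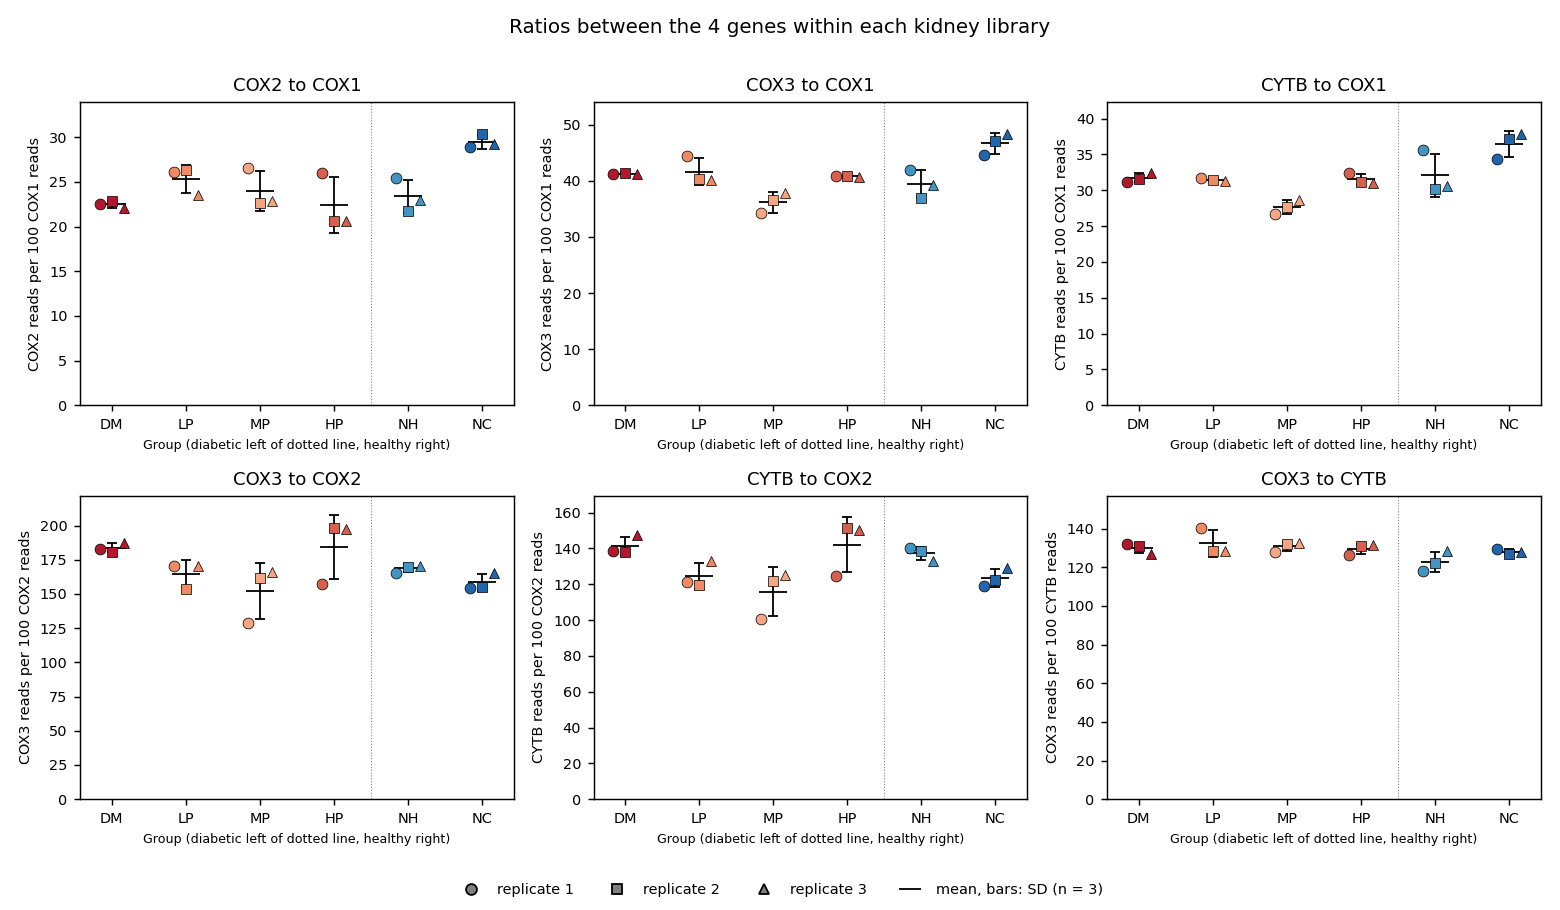
Ratios between the 4 genes in each library, as reads of one gene per 100 reads of another, by group, with the mean and SD of 3 libraries. COX2 per 100 COX1 reads is highest in NC, and COX3 per 100 CYTB reads stays between 118 and 140 in all libraries.

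At the high dose COX3 was low relative to COX1, by an amount that was large in healthy (NH against NC) and slight in diabetic animals (HP against DM). There were 40.9, 40.8 and 40.7 COX3 reads per 100 COX1 reads in HP, against 41.2, 41.4 and 41.2 in DM. In healthy kidneys there were 42.0, 37.0 and 39.2 in NH, against 44.6, 47.1 and 48.3 in NC. HP lay below DM and NH below NC. LP, at 44.4, 40.4 and 40.2, overlapped DM, and neither LP nor MP enters the test of feed, which sets HP and NH against DM and NC. The log2 difference was -0.13 (SE 0.031, two-sided exact permutation test, p = 0.005, which is the lowest value 400 splits allow, adjusted p = 0.0341), made up of -0.02 (SE 0.0035) between HP and DM and -0.25 (SE 0.063) between NH and NC. It was the 1 of 6 ratios under 0.05 before adjustment, beside 48.5% of all 66 pairs, and the 1 of 6 to pass after it, beside 31.8%. Between NH and NC, 4 of the 6 ratios did not overlap, beside 56.1% of all pairs. Without 1 of the 3 DM libraries the log2 difference was -0.132 to -0.129, and without NC replicate 3 it was -0.118. The adjusted p of the exact permutation test was then between 0.0619 and 0.0733. With 1 library left out only 200 splits remain, so the test is coarser, and whether the call rests on those libraries cannot be told.

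COX3 and CYTB, genes of different complexes that lie apart on the genome, kept a steady proportion. COX3 per 100 CYTB reads ranged from 118 to 140 over the 18 libraries. The group means were 130 ± 2.69 for DM, 132 ± 6.84 for LP, 131 ± 2.49 for MP and 130 ± 2.82 for HP, and 123 ± 5.16 for NH and 128 ± 1.44 for NC (SD, n = 3 each). The SD of its log2 value over the libraries was 0.0512, the lowest of the 66 pairs of mitochondrial genes, although ND1 to ND2, at 1.17-fold from lowest to highest library, had a narrower range than its 1.19-fold. The SD of log2 COX2 to COX1 was 0.171, 31st of the 66. No contrast of groups separated the COX3 to CYTB ratio, whose libraries overlapped in all 6 contrasts made.

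Relative to the geometric mean of the 8 other mitochondrial genes in the same library, a scale added after the data were seen, COX2 was lower in diabetic than in healthy kidneys at each feed that both states share, water and the high dose. It was at 3.59, 3.69 and 3.67 times that mean in DM, against 4.63, 4.49 and 4.49 times in NC. It was at 3.21, 2.94 and 3.08 times in HP, against 3.27, 3.60 and 3.40 times in NH. DM lay wholly below NC, and HP wholly below NH. The diabetic LP libraries, at 3.64, 3.91 and 3.82, were all above NH, and the MP libraries, at 3.92, 3.55 and 3.62, overlapped it, and neither group enters the test of state. Between DM and HP on one side and NC and NH on the other, the log2 difference was -0.23 (SE 0.028, two-sided exact permutation p = 0.005, the smallest possible, adjusted p = 0.0257 over 36 tests), and COX2 was the only one of the 12 mitochondrial genes to pass, or 8.33%. Without HP replicate 2, which leaves 200 splits, the log2 difference of COX2 was -0.216 (exact permutation test, adjusted p = 0.06). Without HP replicate 3 CYTB passed too (log2 difference -0.14, exact permutation test, adjusted p = 0.0238).

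On the same scale 3 of the 4 genes were lower with the high dose than with water. The log2 difference between HP and NH on one side and DM and NC on the other was -0.33 (SE 0.028) for COX2, -0.28 (SE 0.051) for COX3 and -0.25 (SE 0.045) for CYTB, each with an exact permutation p of 0.005 and an adjusted p of 0.0257. COX1 differed by -0.15 (SE 0.07, exact permutation p = 0.065, adjusted p = 0.18). Of the 12 genes 41.7% passed, and 33.3% were lower, the remaining one being ATP6, while ND5, a subunit of complex I, was higher. The COX3 call was lost without any 1 DM library (log2 difference -0.289 to -0.274, exact permutation test, adjusted p of 0.0514 to 0.06). The CYTB call was lost without DM replicate 3 (-0.233, 0.0514). These differences lay near those with all libraries, and only 200 splits remain with 1 library left out, so the test is coarser. COX1 passed without NH replicate 2 (log2 difference -0.20, exact permutation test, adjusted p = 0.03). Measured against ND1 and ND2 alone, CYTB differed by -0.20 and no longer passed (exact permutation test, adjusted p = 0.0771).

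**Figure D3:**
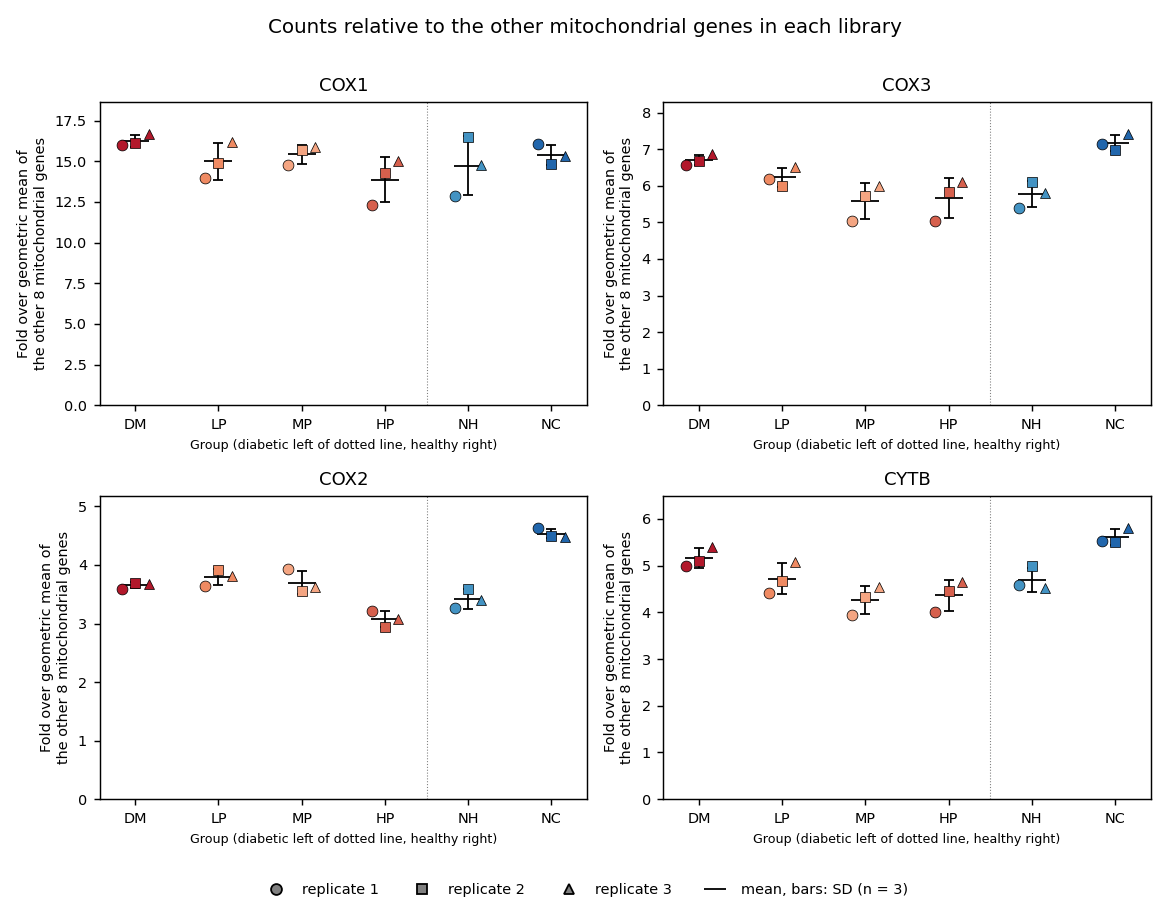
Counts of COX1, COX3, COX2 and CYTB as a multiple of the geometric mean of the 8 other mitochondrial genes in each library, by group, with the mean and SD of 3 libraries. COX2 lies at 2.94 to 3.92 in the diabetic groups, at 3.27 to 3.60 in NH, within that range, and at 4.49 to 4.63 in NC.

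Across the diabetic groups COX2 had a negative linear slope over flour dose on this scale, with only the high dose below DM. It averaged 3.65 ± 0.0505 for DM, 3.79 ± 0.138 for LP, 3.70 ± 0.200 for MP and 3.08 ± 0.131 for HP (SD, n = 3 each), so the low and medium doses lay near DM and the high dose below it. The slope was -0.07 log2 units per g per kg (SE 0.017, exact permutation p = 0.00328 over 369600 assignments, adjusted p = 0.0257), again the only one of the 12 genes to pass (8.33%). Without HP replicate 1 or 2 the adjusted p was 0.0617 or 0.0672. COX1, COX3 and CYTB had negative slopes that did not pass with all libraries (adjusted p of 0.0656 to 0.075). Each of them passed without HP replicate 3 (adjusted p of 0.0327 for COX1, 0.0238 for COX3 and 0.0306 for CYTB), COX1 also without LP replicate 1 (0.0231), and COX3 and CYTB also without MP replicate 1 (0.0225 and 0.0427), all by the exact permutation test. Among the 4 genes themselves no ratio had a linear slope over dose that passed. Of the 6 slopes, with exact permutation p of 0.567 to 0.898, 0 were under 0.05 before adjustment and 0 after it. The shares of all pairs were 22.7% before and 10.6% after adjustment.

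In some ratios the libraries of a single dose did not overlap those of DM, while no ratio had a linear slope over dose that passed. There were 26.1, 26.3 and 23.6 COX2 reads per 100 COX1 reads in LP and 26.6, 22.7 and 22.8 in MP, against the DM values above, so LP lay above DM and MP overlapped it. COX3 per 100 COX1 reads was 34.2, 36.6 and 37.8 in MP, and CYTB per 100 COX1 reads was 26.7, 27.6 and 28.6 in MP, against 31.2, 31.6 and 32.5 in DM. MP lay below DM in both ratios. Libraries did not overlap for 3 of the 6 ratios between LP and DM (40.9% of all pairs), for 4 between MP and DM (47.0%) and for 1 between HP and DM (47.0%). Such separation was common among all pairs of mitochondrial genes. With 3 libraries a side an exact permutation p cannot be under 0.1, so none of these contrasts was called. These contrasts all use the same 3 DM libraries.

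Levels over all 29 features were fitted with edgeR's quasi-likelihood test and Benjamini-Hochberg adjustment. Scaled by TMM, COX2 was lower in DM than in NC (log2 fold change -0.39, SE 0.068, adjusted p = 6.39e-05), while CYTB at -0.20 (adjusted p = 0.0677), COX3 at -0.18 (0.115) and COX1 at -0.00 (0.974) did not pass. That is 1 of 4 genes called, beside 55.2% of all features, and lower calls made up 6.9%. The other 3 scalings, by median of ratios, by the 16 nuclear genes and with none, called all 4 lower, beside 93.1%, 82.8% and 89.7% of features. Lower calls there numbered 14, 19 and 16 of 29 features, and 7, 8 and 8 of the 8 other mitochondrial genes, so the fall is not particular to the 4 genes. By TMM, all 4 also passed as lower when DM replicate 1 or 3 or NC replicate 1 or 2 was left out. The share of all features called with 1 library left out is not given here. All 4 passed as lower, too, when the fit held DM and NC alone. That fit called 29 of 29 features, 15 of them lower, among them 8 of the 8 other mitochondrial genes. Over the 4 scalings COX2 was 1.31-fold to 3.41-fold lower and COX1 1.0-fold to 2.6-fold lower. The median of all 29 features moved with the scaling, from a log2 fold change of 0.095 under TMM to -1.28 under nuclear scaling. A scaling moves all features of a comparison about alike, so that COX2 lay below the median is 1 observation, not 4. The size of a fold rests on the scaling.

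At the high dose all 4 genes were lower in diabetic than in healthy kidneys under each of the 4 scalings, by 1.27-fold to 3.27-fold for COX2, 1.23-fold to 3.22-fold for CYTB, 1.21-fold to 3.16-fold for COX1 and 1.17-fold to 3.06-fold for COX3. By TMM the log2 fold changes of HP over NH were -0.35 for COX2, -0.30 for CYTB, -0.28 for COX1 and -0.23 for COX3, with edgeR adjusted p of 0.000247, 0.00635, 0.00813 and 0.041. Called features made up 75.9% of all, and lower calls 20.7%. Under the other scalings 82.8%, 93.1% and 79.3% of features were called. Lower calls there numbered 12, 21 and 12 of 29 features, and 8 of the 8 other mitochondrial genes under each. COX3 no longer passed without HP replicate 1 or 2 or NH replicate 2 or 3 (edgeR adjusted p of 0.0625 to 0.117), nor when HP and NH were fitted alone (0.0598). Set against the 8 other mitochondrial genes as library size, COX2 alone of the 4 remained lower, at -0.31 in DM over NC (edgeR adjusted p = 0.000228) and -0.15 in HP over NH (0.0372), beside 55.2% and 58.6% of features called. Lower calls on that scale numbered 2 and 1 of 29 features.

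**Figure D4:**
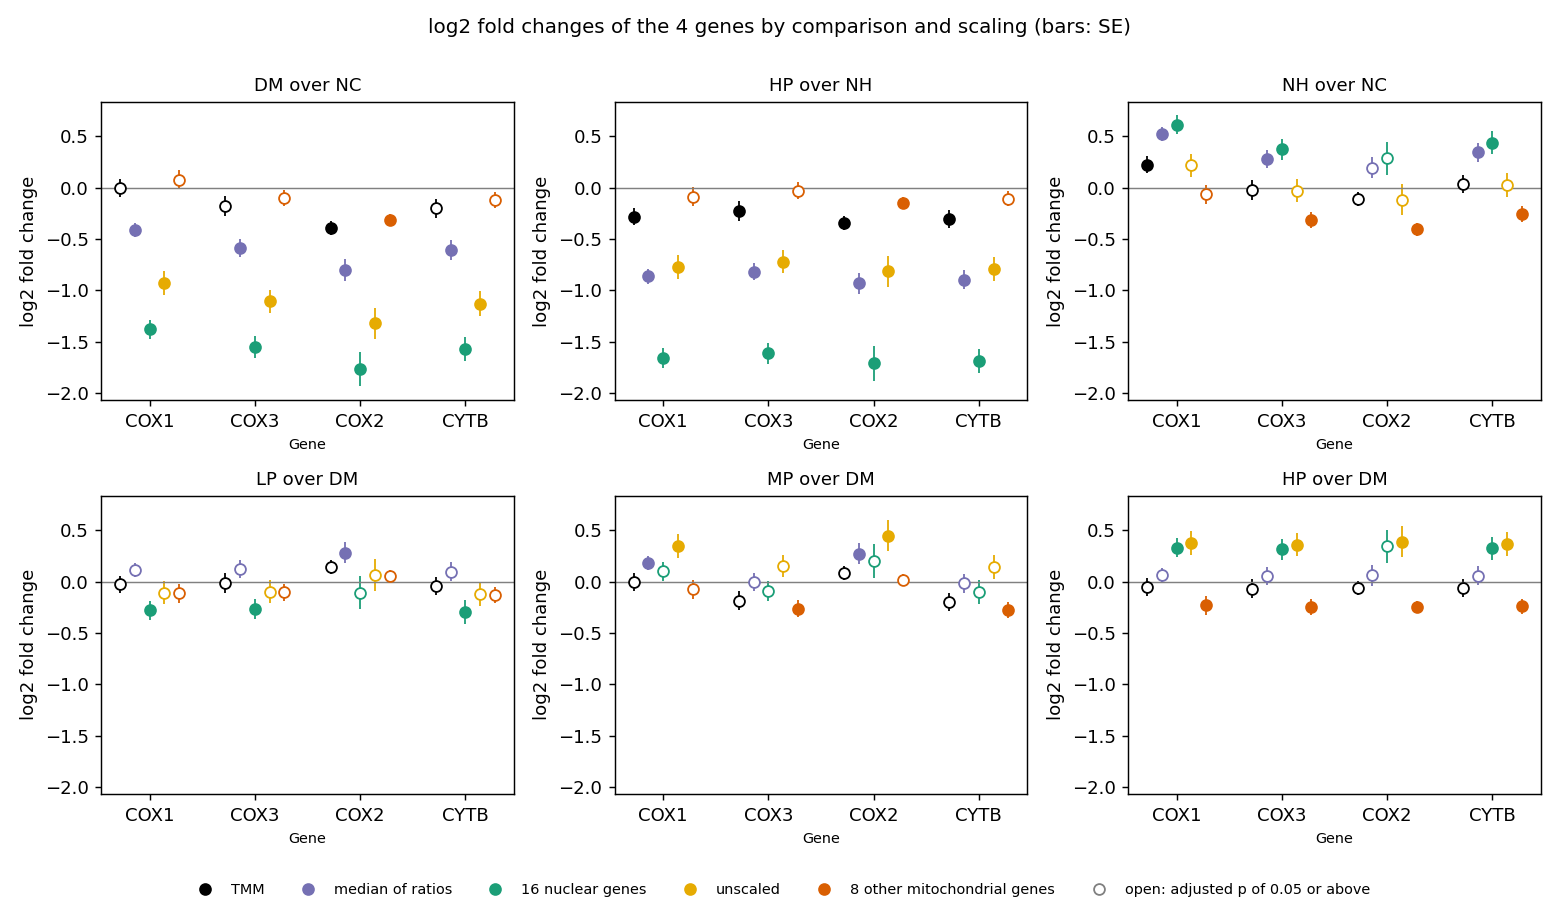
edgeR log2 fold changes of the 4 genes in 6 comparisons under 5 scalings, with bars for the SE and open circles where the adjusted p is 0.05 or above. COX2 in DM over NC is filled under every scaling, from -0.31 to -1.77, and against DM the sign of each gene differs between scalings in LP, MP and HP, except for COX2 in MP.

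In healthy kidneys, COX1 was higher with flour by TMM (NH over NC log2 fold change 0.23, edgeR adjusted p = 0.0401), 1 of 4 genes beside 51.7% of features. That call was lost without NH replicate 2 or 3 or without any 1 NC library (edgeR adjusted p of 0.0712 to 0.381). Median-of-ratios and nuclear scaling called 3 of 4 genes higher, beside 72.4% and 79.3% of features, and unscaled counts called 0, beside 37.9%. Under median-of-ratios and nuclear scaling, higher calls numbered 14 and 16 of 29 features, and 8 of the 8 other mitochondrial genes under each. COX2 passed under none of the 4 scalings, with edgeR adjusted p of 0.1 to 0.567. Against the 8 other mitochondrial genes, COX2 at -0.41, COX3 at -0.31 and CYTB at -0.26 were lower in NH than in NC, beside 65.5% of features called and 62.1% called lower. NC is shared with DM over NC, so these contrasts are not independent.

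Against DM, 0 of 4 genes passed by TMM in LP (27.6% of features called), MP (44.8%) or HP (37.9%). At an unadjusted p under 0.05, edgeR counted 1 in LP, 1 in MP and 0 in HP, and DESeq2 called 1, 2 and 0 after adjustment. DESeq2 called 48.3%, 51.7% and 31.0% of features there. Its calls of the 4 genes in LP and MP were higher, as were 12 and 9 of 29 features. Same-numbered MP and DM libraries deviated together, and once replicate number entered as a block CYTB was lower in MP (log2 fold change -0.20, edgeR adjusted p = 0.0486), so 1 of 4 passed, beside 51.7% of features. Against the 8 other mitochondrial genes, all 4 were lower in HP than in DM, by log2 fold changes of -0.23 to -0.25, beside 58.6% of features called. Lower calls there numbered 16 of 29 features. With median-of-ratios, nuclear and no scaling, 1, 3 and 0 of 4 passed in LP (41.4%, 51.7% and 24.1% of features). In MP 2, 0 and 2 passed (51.7%, 48.3% and 37.9%), and in HP 0, 3 and 4 (31.0%, 58.6% and 62.1%). The 3 calls in LP under nuclear scaling were lower, beside 10 of 29 features. All other calls of the 4 genes by these scalings were higher. Higher calls by median of ratios numbered 11 of 29 features in LP and 9 in MP. They numbered 14 in HP by nuclear scaling, and 11 in MP and 16 in HP unscaled. Against the 8 other mitochondrial genes in MP, COX3 at -0.26 and CYTB at -0.27 were lower (41.4%, with 9 of 29 features lower), and in LP 0 of 4 passed (20.7%).

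The high-dose effect in diabetic minus that in healthy kidneys passed for 0 of 4 genes by TMM (3.45% of features), with 1 of 4 at an unadjusted p under 0.05 and 1 of 4 by DESeq2, which called 24.1% of features. With median-of-ratios, nuclear and no scaling, 1, 0 and 0 of 4 passed, beside 17.2%, 31.0% and 24.1% of features, and against the 8 other mitochondrial genes 0 of 4 did, beside 6.9%. COX2 had the effect difference of 0.16 on that last scale (edgeR adjusted p = 0.313). The calls by median-of-ratios factors and by DESeq2 were both of COX1, at a log2 difference of -0.453 each.

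Of the 4 genes' profiles over the libraries, each set against all other features, those of COX3 and CYTB were most like each other. Their TMM-scaled log2 levels had a Pearson r of 0.961 over the 18 libraries, and 0.918 after group means were removed. COX1 was most like CYTB (0.688) and COX3 (0.66), and COX2 was most like CYTB (0.654), COX3 (0.61) and ATP6 (0.593). After group means were removed COX2 kept 0.818 with ATP6 but 0.19 with CYTB. The libraries share scaling and depth, and under nuclear scaling each of the 4 genes correlated at 0.987 or above with the 3 features most like it, so the values describe these libraries alone.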

How the data were processed

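Kidney RNA was sequenced in 18 libraries made with an NEBNext Ultra RNA kit (per the labels' protocols), a kit without strand marking. CASAVA 1.7, Bowtie 0.12.2 and the mouse build mm8 are listed, without roles, in the submitters' processing notes. The deposited values are titled FPKM, but 522 of 522 are whole numbers, and as FPKM they would imply 5.88 to 12.1 times as many reads as a library holds, so these deposited values were taken as counts; no per-sample column was left out. All 29 features were fitted with edgeR 4.0.16 (R 4.3.3) over all 18 libraries. No replicate pair agreed within sampling noise (chi-square per degree of freedom 104 to 3660). The quasi-likelihood test used TMM factors, no filter and Benjamini-Hochberg adjustment over 29. DESeq2 1.42.0 and limma 3.58.1 (pseudocounts 1 and 0.5), other scalings, a low-count filter, groups alone, a replicate block and leaving out each library were alternatives.

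Log2 ratios were tested by exact permutation: state within feed, feed within state, and slope over dose. They were adjusted over 198 tests of 66 pairs of mitochondrial genes, in place of the 18 tests of member pairs first planned. Tests against the 8 other mitochondrial genes were added after the data were seen and adjusted over 36. Genes named are the 4 members, and for likeness the 3 features with the highest r. Same-numbered libraries correlated at 0.684, 0.465 and 0.733 in MP and DM, over 0.1 in each, which held in no other pair of groups compared. HP and NH came close, at 0.897, 0.527 and 0.092, so which pairs of groups qualify rests on that threshold. The labels give no source for such pairing. The members and lists were chosen with earlier results of these data known.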

Additional observations from a re-analysis of the deposited data

How the results depend on the processing

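limma with either pseudocount and the low-count filter changed no direction or call of the 4 genes in any of the 7 comparisons fitted across all features. The lowest count was 10521 and limma used the same TMM factors, so the pseudocounts and the filter had little to act on. The scaling changed many directions and calls, and the cause of each change was not tested. The share of all features called by edgeR under each scaling is given with the results above. DESeq2 called 27 of 29 features in DM over NC and 21 in NH over NC. The number of the 4 genes called by edgeR with median-of-ratios factors, and by DESeq2, was 4 in DM over NC, 3 in NH over NC, 1 in LP over DM, 2 in MP over DM and 1 for HP over DM minus NH over NC, called the difference of effects here. Both turned the log2 fold changes of COX2 and COX3 to 0.194 and 0.284 in NH over NC, of COX1, COX3 and CYTB to 0.112, 0.123 and 0.099 in LP over DM, of COX1 to 0.181 in MP over DM, of COX1, COX2, COX3 and CYTB to 0.069, 0.064, 0.053 and 0.059 in HP over DM, and of COX2 to -0.13 for the difference. With nuclear genes as library size, 4 genes passed in DM over NC and 3 in each of NH over NC, LP over DM and HP over DM. COX2 and COX3 turned to 0.286 and 0.377 in NH over NC, COX2 to -0.106 in LP over DM, COX1 to 0.101 in MP over DM, and COX1, COX2, COX3 and CYTB to 0.331, 0.344, 0.316 and 0.324 in HP over DM. Unscaled counts gave 4 in DM over NC, 0 in NH over NC, 2 in MP over DM and 4 in HP over DM. COX1, COX3 and CYTB turned to 0.345, 0.153 and 0.143 in MP over DM, the 4 genes to 0.377, 0.391, 0.361 and 0.37 in HP over DM, and COX1, COX3 and CYTB to 0.158, 0.388 and 0.338 for the difference. With the groups of each comparison fitted alone, 4 passed in DM over NC and 3 in HP over NH (COX3 was lost). In NH over NC 0 passed, and 3 for the difference. Of all 29 features, 29, 19, 14 and 15 were called in these comparisons, in that order. COX1 turned to 0.025 in MP over DM, the 4 genes to 0.044, 0.041, 0.028 and 0.034 in HP over DM, and COX1, COX3 and CYTB to 0.172, 0.405 and 0.351 for the difference. With the 8 other mitochondrial genes as library size, an alternative chosen after seeing the data, 1 passed in HP over NH, 3 in NH over NC, 2 in MP over DM and 4 in HP over DM. COX1 turned to 0.078 in DM over NC and -0.064 in NH over NC, CYTB to -0.255 in NH over NC, and COX3 and CYTB to 0.07 and 0.014 for the difference.

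With the replicate number as a block, 2 genes passed in DM over NC (CYTB joined COX2) and 1 in MP over DM. Of all 29 features, 17 were called with the block in DM over NC, 14 higher and 3 lower. In MP over DM 15 were called, 6 higher and 9 lower. In the other comparisons the number of the genes followed here that were called did not move. The log2 ratios' estimates were the same by construction, but permuting within blocks left 0 of the 6 ratios between states under an unadjusted 0.05, against 2 without the block: the exact p was 0.0625 for both COX2 to COX1 and COX3 to COX2. For COX3 to COX1 between feeds it was 0.0312, the smallest that the 64 arrangements give. The share of all pairs of mitochondrial genes under 0.05 within blocks is not given here. In all groups, MP and DM included, the labels give same-numbered libraries no more than a shared number. Their correlations were 0.684, 0.465 and 0.733 in MP and DM, and lay between -0.722 and 0.897 in the other pairs of groups.

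Leaving out 1 library moved the number of the 4 genes called to between 1 and 4 in DM over NC and 0 and 1 in NH over NC. In MP over DM it lay between 0 and 2, with 2 without MP replicate 3. The share of all features called in these fits is not given here. COX1 lay between -0.413 and 0.012 in DM over NC, and CYTB between -0.079 and 0.057 in NH over NC. In LP over DM, COX1 lay between -0.048 and 0.001, COX3 between -0.036 and 0.01 and CYTB between -0.058 and 0.003. In MP over DM, COX1 lay between -0.077 and 0.199, COX3 between -0.296 and 0.008 and CYTB between -0.3 and 0.014. In HP over DM, COX1 lay between -0.099 and 0.025, COX2 between -0.124 and 0.022, COX3 between -0.113 and 0.008 and CYTB between -0.098 and 0.031. For the difference, COX2 lay between -0.012 and 0.239, COX3 between -0.092 and 0.146 and CYTB between -0.137 and 0.09.

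Among the log2 ratios between states, leaving out 1 library gave 0.14 to 0.222 for COX3 to COX2 and 0.095 to 0.165 for CYTB to COX2, which passed without HP replicate 1 (exact permutation test, adjusted p = 0.0413 for each). Between feeds it gave -0.231 to -0.147 for COX2 to COX1 and 0.017 to 0.099 for COX3 to COX2, which passed without the same library (0.0413 each), and -0.154 to -0.108 for COX3 to COX1. Slopes lay between -0.037 and 0.003 for COX2 to COX1, -0.02 and 0.019 for COX3 to COX2, -0.015 and 0.024 for CYTB to COX2 and -0.007 and 0.002 for COX3 to CYTB. COX1 to the 8 other mitochondrial genes lay between -0.049 and 0.041 between states, and was 0.025 against ND1 and ND2 alone.

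Taken at each feed alone, the difference between states in water-fed rats was -0.391 for COX2 to COX1, -0.177 for COX3 to COX1, -0.198 for CYTB to COX1, 0.214 for COX3 to COX2, 0.193 for CYTB to COX2 and 0.021 for COX3 to CYTB. In flour-fed rats it was -0.068 for COX2 to COX1 and 0.053 for COX3 to COX1. The difference between feeds in diabetic rats was -0.014 for COX2 to COX1, -0.016 for COX3 to COX1 and -0.01 for CYTB to COX1. In healthy rats it was -0.337 for COX2 to COX1, -0.245 for COX3 to COX1, 0.091 for COX3 to COX2 and 0.151 for CYTB to COX2. The depth of the libraries is unknown, which limits every level but not the ratios within a library.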
